A study of Mus musculus with 8 samples.

Results

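Secretin, VIP (vasoactive intestinal peptide) and PACAP (pituitary adenylate cyclase-activating polypeptide) are related peptide hormones, and their genes and those of their receptors were followed here in attached and detached neuroblastoma cells. The set held 3 ligand genes (Sct, Vip and Adcyap1) and 4 receptor genes (Sctr, Vipr1, Vipr2 and Adcyap1r1), out of 19938 genes that had an array feature with a single gene symbol. The genes were chosen by name as a family, with the differences of Sctr and Vip between the phenotypes already known, so the values of these genes are not independent evidence that the family changes. Each gene was read from 1 transcript cluster, the set of probes that stands for a transcript on the array, taken as the cluster with the highest mean signal over all 8 arrays. That choice mattered for Vipr1 only, where the cluster used had a mean of 5.76 log2 and the one set aside a mean of 5.51 log2. All 7 genes had such a cluster.

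Neuro2a is an established mouse neuroblastoma line of strain AJ. The anchorage dependent (AD) cells were cultured attached in DMEM with fetal bovine serum, penicillin/streptomycin and L-glutamine. The anchorage independent (AI) cells, labelled as anoikis resistant, were tumorspheres kept in NeuroCult medium for neural stem cells with its proliferation supplements, EGF, bFGF and heparin. Attachment and medium changed together, so their effects cannot be told apart. RNA of 4 AD and 4 AI samples was hybridized to 1 array each. The labels number the samples as biological replicates and the series text speaks of independent cultures, while the methods describe replicate hybridizations. If the latter holds, the p-values measure technical spread. Because these are bulk samples of a culture, fewer cells expressing a gene and less RNA per cell cannot be told apart.

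In general these peptides are cut from larger precursors in secretory granules and act on class B1 G protein-coupled receptors. The secretin receptor binds secretin, the PACAP receptor encoded by Adcyap1r1 prefers PACAP, and the receptors encoded by Vipr1 and Vipr2 bind both VIP and PACAP. All of these receptors couple to Gs and raise cAMP, and the PACAP receptor can also activate phospholipase C. VIP and PACAP are known transmitters of autonomic neurons, and both peptides and their receptors are known from neuroblastoma and other tumors of the sympathetic lineage.

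The receptor gene Sctr was higher in AD cells and the ligand gene Vip was higher in AI cells, each past the call rule. A gene was called when its adjusted p from limma (a linear model with moderated variances, Benjamini-Hochberg over all 35556 clusters) was under 0.05 and the phenotypes differed by at least 1.5-fold. Sctr and Vip were thus 2 of the 7 genes. Over all clusters 3.93% were called, 1.39% as higher in AD cells and 2.53% as higher in AI cells. With 1 cluster per gene the shares were 4.41%, 2.02% and 2.40%. Since the set was assembled around Sctr and Vip, nothing was read from this count. Of the called clusters 64.5% were higher in AI cells, and after median centring of the arrays this share was 47.0%. AD replicate 4 had the lowest weight of the 8 arrays (0.350, against 0.772 to 1.76 for the others) when arrays were weighted by how well they fitted. The array medians lay between 5.82 and 5.99 log2. A signal below the median of its own array is called dim here, since the table holds no detection calls and a ratio that involves a dim signal is not known exactly.

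Sctr encodes the secretin receptor, which signals through Gs. The AD arrays read 9.70, 9.85, 9.83 and 9.78 log2 and the AI arrays 7.91, 7.76, 7.86 and 7.97 log2 (replicates 1 to 4). The lowest AD array lay 1.73 log2 above the highest AI array. AD cells averaged 9.79 ± 0.065 log2 and AI cells 7.87 ± 0.090 log2 (mean ± SD of 4 arrays, as for the other genes), so that Sctr was 3.78-fold higher in AD cells, with a 95% interval of 3.42 to 4.16. The adjusted p from limma was 3.57e-07. The exact two-sided permutation test gave p = 0.0286 (n = 4 each), the smallest p that 4 against 4 arrays allow. By its log2 ratio Sctr ranked 7 among 19938 genes toward AD cells. None of its 8 signals was dim.

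Sct encodes the precursor of secretin, the ligand of that receptor. Its AD arrays read 7.09, 7.15, 7.01 and 6.89 log2, and its AI arrays 6.59, 6.80, 6.65 and 6.73 log2. All AD arrays were above all AI arrays, with a gap of 0.098 log2 between AD replicate 4 and AI replicate 2. AD cells averaged 7.03 ± 0.11 log2 and AI cells 6.69 ± 0.091 log2. The ratio of AD over AI was 1.27-fold (95% interval 1.13 to 1.42), and Sct was therefore not called although limma gave an adjusted p of 0.0105. Ligand and receptor thus both had their higher signals in AD cells, and the interval for Sct ended below 1.5-fold.

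Vip encodes the precursor of VIP, a vasodilator and neuronal transmitter. The AI arrays read 6.48, 6.63, 6.39 and 6.53 log2 and the AD arrays 5.23, 5.44, 5.33 and 5.33 log2. The lowest AI array lay 0.95 log2 above the highest AD array. AI cells averaged 6.51 ± 0.10 log2 and AD cells 5.33 ± 0.086 log2, a level 2.26-fold higher in AI cells (95% interval 2.03 to 2.51, adjusted p = 1.26e-05 from limma). The exact two-sided permutation test over 4 against 4 arrays gave p = 0.0286 here too. All 4 AD signals of Vip were dim and none of the AI signals was, so the true ratio is uncertain. By its log2 ratio Vip ranked 63 among the same genes toward AI cells.

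The Vip promoter is shown because Vip was the ligand gene that was called, and because the receptors of its peptide raise cAMP, which acts on genes through CREB and the cAMP response element. The stretch is taken from RefSeq (mouse build GRCm38.p6, plus strand, chr10:5638968-5639192) and lies before the outermost annotated start of the gene. A shorter stretch of Adcyap1 (plus strand, chr17:93198915-93198944) is set beside it. Capitals mark TGACGTC, the cAMP response element TGACGTCA less its last base, searched on both strands.
Vip: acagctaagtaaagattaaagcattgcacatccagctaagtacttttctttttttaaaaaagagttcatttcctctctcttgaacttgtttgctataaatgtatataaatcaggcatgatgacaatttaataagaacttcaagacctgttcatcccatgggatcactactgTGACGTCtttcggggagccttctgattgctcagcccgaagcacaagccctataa
Adcyap1: gactaggatgcTGACGTCttttactgatac
Of the 7 genes, 6 had a promoter window of 250 bases before to 50 bases after an annotated start, all but Sctr. TGACGTC lay in the windows of Vip and Adcyap1, with positions counted from the annotated start that each window was set on. Its first base was at -79 for Vip, whose printed stretch ends before another annotated start further upstream. For Adcyap1 it was at -91 in the more upstream of its 2 windows, which lies within the longest annotated span of the gene. Over all 32851 windows, 3.21% held TGACGTC, 1.79% the full TGACGTCA and 20.8% the shorter TGACG, which the longer motifs contain. TGACG alone was also in the window of Vipr1, and no member's window held the full palindrome. A match in these letters is a description of the sequence and does not show that a factor binds there.

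Vipr1 and Vipr2 encode the receptors for VIP and PACAP, and neither was called. Vipr1 read 5.94, 5.50, 5.81 and 5.83 log2 in AD cells and 5.72, 5.82, 5.73 and 5.76 log2 in AI cells. The arrays of the phenotypes overlapped, and 7 of the 8 signals were dim. The log2 ratio of AD over AI was 0.013 with a 95% interval of -0.19 to 0.21 (adjusted p = 0.947 from limma). Its other cluster, with the lower mean, had a log2 ratio of -0.16 (adjusted p = 0.152), also with overlapping arrays. Vipr2 read 5.07, 5.06, 5.03 and 5.04 log2 in AD cells and 4.98, 5.12, 5.03 and 5.24 log2 in AI cells. All 8 of these signals were dim, and the arrays overlapped. The log2 ratio was -0.044 with an interval of -0.19 to 0.10 (adjusted p = 0.723). Neither interval reached 1.5-fold in either direction, but dim signals can hide a difference, so it cannot be said from these arrays that the VIP receptors were alike in the phenotypes.

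Adcyap1r1, the gene for the PACAP receptor, was well above the array medians in both phenotypes. The AD arrays read 10.17, 10.26, 10.22 and 10.05 log2 and the AI arrays 9.93, 10.00, 9.86 and 9.92 log2. They did not overlap, but AD replicate 4 was only 0.044 log2 above AI replicate 2. AD cells averaged 10.17 ± 0.090 log2 and AI cells 9.93 ± 0.059 log2, a ratio of 1.18-fold (95% interval 1.07 to 1.30, adjusted p = 0.0243 from limma) that was not called. The adjusted p rose to between 0.0573 and 0.0751 when AD replicate 1, 2 or 3 or AI replicate 1, 3 or 4 was left out, and to 0.0547 with replicate number as a block. Its ligand gene Adcyap1 read 5.34, 5.17, 5.39 and 5.47 log2 in AD cells and 5.08, 5.26, 5.27 and 5.29 log2 in AI cells. All 8 signals were dim and the arrays overlapped. The log2 ratio was 0.12 with an interval of -0.056 to 0.29 (adjusted p = 0.357).

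**Figure D1:**
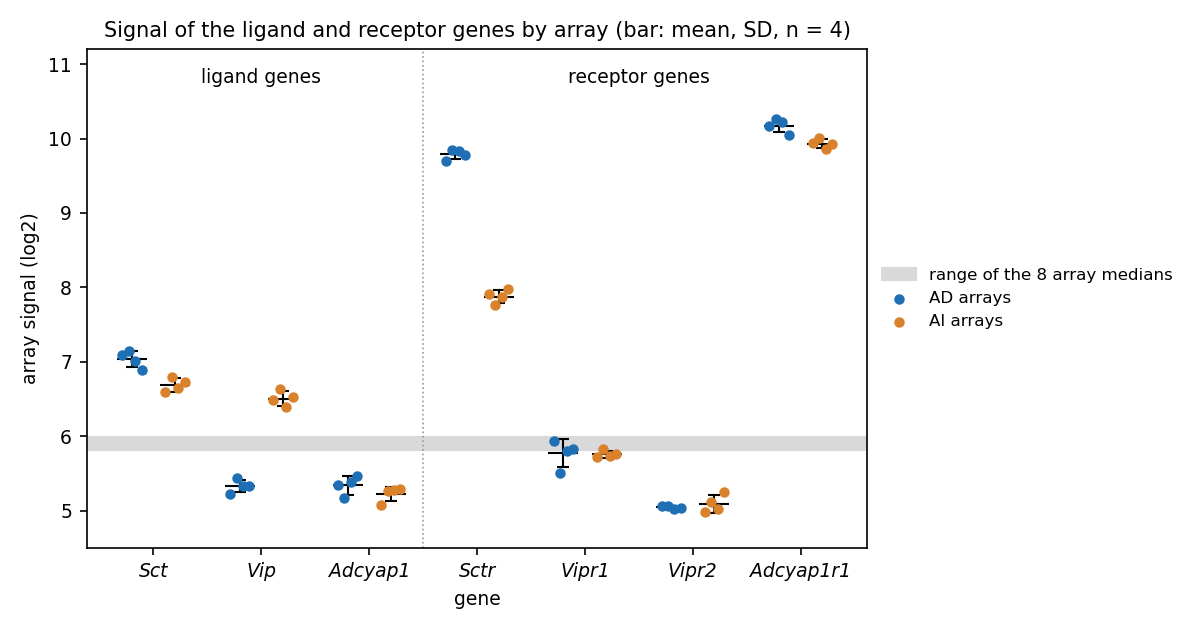
Array signal (log2) of the 3 ligand and 4 receptor genes in AD and AI cells. Each dot is an array, 4 per phenotype in replicate order, black bars are means with SD, and the grey band is the range of the 8 array medians (5.82 to 5.99 log2); heights of different genes come from different probes and are not to be compared. The Sctr dots of AD and AI cells are far apart, the Vip dots lie below the band in AD cells and above it in AI cells, and Vipr2 and Adcyap1 lie below it on all arrays.

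Counted without the fold threshold, 4 of the 7 genes (Sctr, Sct, Adcyap1r1 and Vip) had an adjusted p under 0.05 in limma, which is 57.1%, against 18.1% of all clusters (8.50% higher in AD cells and 9.62% higher in AI cells). Arrays did not overlap for the same 4 genes, against 22.1% of all clusters. Sctr, Sct and Adcyap1r1 had the higher signals in AD cells and Vip in AI cells. The 3 genes that did not pass (Vipr1, Vipr2 and Adcyap1) were those with dim signals in both phenotypes. The median log2 ratio was 0.12 over the 7 genes and -0.00078 over all clusters. Because the genes were chosen with the differences of Sctr and Vip known, these counts describe the set and are no test of it.

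**Figure D2:**
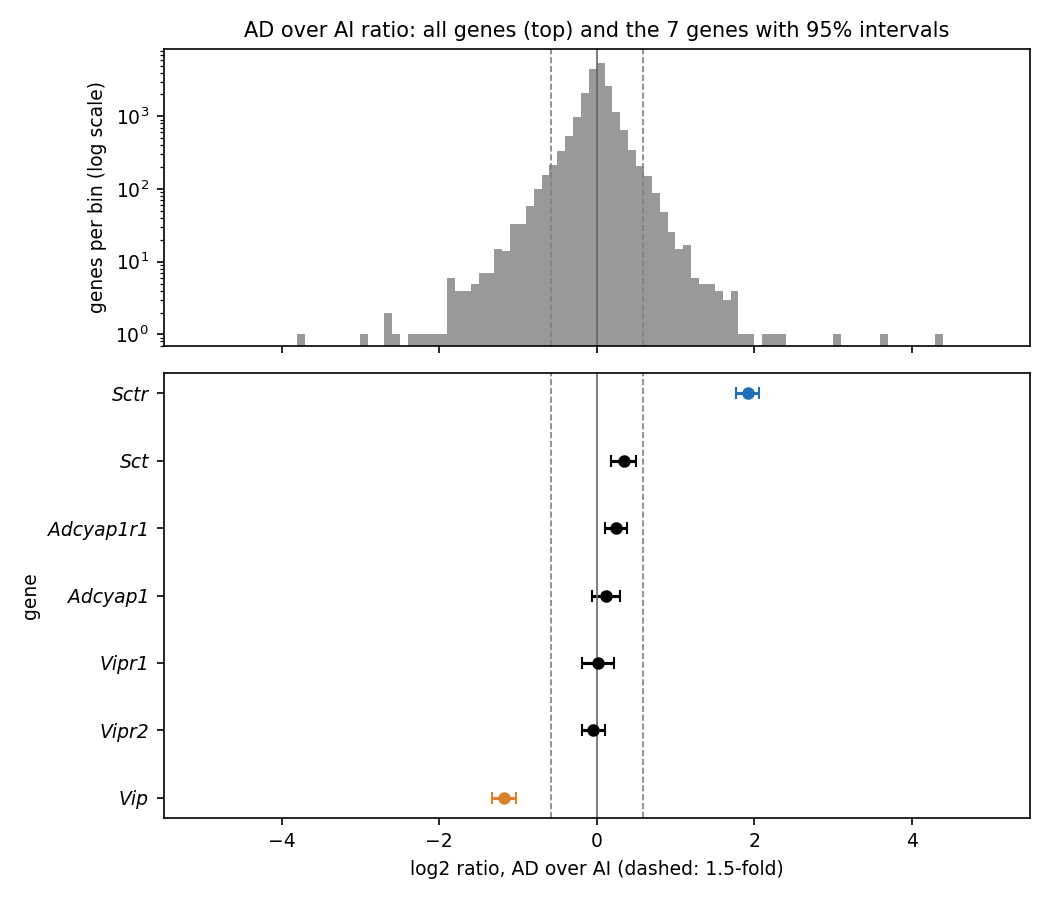
Log2 ratio of AD over AI for 19938 genes (top, number of genes per bin of 0.1 log2 on a log axis) and for the 7 ligand and receptor genes (bottom, points with 95% intervals from limma). Dashed lines mark 1.5-fold, and Sctr at 1.92 and Vip at -1.17 are the points beyond them.

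The position of the genes was looked at after their values were seen. The 7 genes lie on 7 different chromosomes, so none of them neighbours another. Of the 14 nearest measured neighbours, 1 on each side by the RefSeq gene order of GRCm38.p6, 2 were called, against 4.41% of all genes, and 6 had an adjusted p under 0.05 in limma at any fold, against 18.1% of all clusters. Both called neighbours flank Vip. Myct1 lay with Vip, as AI cells averaged 7.58 log2 and AD cells 6.20 log2 (log2 ratio -1.38, adjusted p = 1.87e-06), and Fbxo5, an inhibitor of the anaphase-promoting complex, lay the other way, with means of 9.53 log2 for AD and 8.83 log2 for AI cells (log2 ratio 0.70, adjusted p = 0.00273). The neighbours of Sctr were not called, but Cfap221 and Tmem37 had log2 ratios of 0.52 and 0.40 in the same direction as Sctr (adjusted p = 0.000450 and 0.00242). Their AI means of 5.22 and 5.43 log2 were under the lowest array median, and so was the AD mean of Cfap221, 5.75 log2. The AD mean of Tmem37, 5.83 log2, lay within the range of the array medians, so neither ratio is known exactly.

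The genes whose signals followed Sctr most closely over the 8 arrays were Ehd3, Atp10d and Astn2, with Pearson correlations of 0.998, 0.998 and 0.997. Ehd3 encodes a protein of endosomal recycling, Atp10d a lipid flippase, and Astn2 a neuronal protein of the astrotactin family. For Vip they were Ifih1 (0.998), the sensor of double-stranded RNA also known as MDA5, Unc93b1 (0.998), a chaperone of endosomal Toll-like receptors, and 4930402H24Rik (0.997). The points form a cluster per phenotype, so these correlations mostly restate the gap between AD and AI cells. In all, 39 genes exceeded 0.99 with Sctr and 45 with Vip. Ifih1 and 4930402H24Rik were not called, and Ifih1 was dim on 4 AD arrays and 1 AI array. Astn2 was dim on 4 AI arrays.

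The pathway around the receptors was described with 10 gene lists, which held 139 different genes, 132 of them measured by a single-symbol cluster. The lists were drawn up with earlier results of these arrays known. Of the 132 genes, 10 were called (7.58%, against 3.93% of all clusters and 4.41% of all genes with 1 cluster per gene). Of these 10, 6 were higher in AD cells and 4 were higher in AI cells. Without the fold threshold 34 of the 132 passed (25.8%, against 18.1% of all clusters). The median log2 ratio of the 132 was 0.019. The called genes were spread over 9 of the lists, with no more than 2 in a list.

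Other ligands and receptors of the class B1 family came first. Of 13 measured ligand genes, Adm2, the gene of the peptide adrenomedullin 2, was higher in AI cells. Its AI arrays lay between 8.90 and 9.22 log2 and its AD arrays between 7.98 and 8.34 log2 (log2 ratio -0.99, adjusted p = 0.000203 from limma). The other 12 were not called, and 11 of the 13 were dim on every array. Of 14 receptor and accessory genes, Crhr1, the receptor for corticotropin-releasing hormone, was higher in AI cells with 8.31, 8.35, 8.29 and 8.41 log2, against 7.71, 7.73, 7.63 and 7.70 log2 in AD cells (log2 ratio -0.65, adjusted p = 6.77e-05). With each array centred on its median this ratio was -0.57, just under 1.5-fold. The other 13 were not called, and 10 of the 14 were dim on every array. At any fold, 2 of the 14, Crhr1 among them, passed with higher AI signals and 0 with higher AD signals. Over all clusters 9.62% and 8.50% passed in these directions. Among class B1 receptors and their ligands, the genes called were thus Adm2, Crhr1 and Vip toward AI cells and Sctr toward AD cells. The median log2 ratio was -0.024 for the ligand list and 0.0038 for the receptor list.

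Peptide precursors are cut and stored by a common set of proteins. Of 17 genes of peptide processing, granules and peptide breakdown, Furin, the gene of a precursor-cleaving protease of the Golgi, was higher in AD cells. Its AD arrays read 9.60, 9.73, 9.74 and 9.67 log2, against 8.74, 8.92, 8.82 and 8.83 log2 for AI (log2 ratio 0.86, adjusted p = 2.88e-05 from limma). The other 16 were not called. Without the fold threshold, 4 of these genes passed with the higher signal in AD cells and 6 with the higher signal in AI cells, against 8.50% and 9.62% of all clusters, and the median log2 ratio was 0.00018. Pcsk2, a granule convertase gene, was without a single-symbol cluster and is not analysed here.

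Downstream of the receptors, Gs activates adenylyl cyclases, and cAMP acts on protein kinase A and Epac until phosphodiesterases break it down. Of 16 genes of G proteins, adenylyl cyclases and phospholipase C beta, the cyclase gene Adcy7 was higher in AD cells with 6.68, 6.62, 6.54 and 6.76 log2, against 5.27, 5.33, 5.29 and 5.43 log2 in AI cells (log2 ratio 1.32, adjusted p = 4.62e-06). The AI signals of Adcy7 were dim, so this ratio is not known exactly, and the other 15 genes were not called. Counted at any fold, 4 genes of this list, Adcy7 included, passed with higher AD signals and 0 with higher AI signals. Over all clusters the shares were 8.50% and 9.62%. Gnas, the gene of Gs alpha, was without a single-symbol cluster and is not analysed here. Of 9 cAMP effector genes, Rapgef3, which encodes Epac1, was the called one, with a mean of 4.88 log2 for AD and 5.48 log2 for AI arrays. Its 8 signals were all dim, and its log2 ratio of -0.60 (adjusted p = 0.000179) fell under 1.5-fold with array weights, quantile normalization or median centring, or without AD replicate 4. Of 16 phosphodiesterase genes, Pde2a, whose product is activated by cGMP, was higher in AI cells with 6.31 to 6.59 log2. Its AD signals were dim and averaged 5.48 log2 (log2 ratio -1.01, adjusted p = 3.59e-05 from limma). In the effector list, 1 gene passed at any fold toward AD cells and 2 toward AI cells. The phosphodiesterase list had 1 and 2 such genes.

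Receptors of this class are switched off by receptor kinases and arrestins. Of 10 genes of receptor desensitization, Grk3, a receptor kinase gene, was higher in AD cells. Its AD arrays read 8.59, 8.58, 8.63 and 8.35 log2, against 7.73, 7.77, 7.62 and 7.62 log2 for AI (log2 ratio 0.85, adjusted p = 0.000104 from limma). The other 9 were not called, and the list's median log2 ratio was 0.084. At any fold, 2 of the 10, Grk3 included, passed with higher AD signals and 0 with higher AI signals. Over all clusters 8.50% and 9.62% passed.

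The transcription factors that answer to cAMP were next. None of the 8 genes of CREB factors and co-activators was called in limma or in the analysis of variance without moderation. In limma 3 of them had an unadjusted p under 0.05. An adjusted p under 0.05 at any fold was reached by 1 of them with higher AD signals and 1 with higher AI signals. Over all clusters the shares were 8.50% and 9.62%. Of 18 transcripts that cAMP induces in neurons or endocrine cells, Gadd45b, a stress response gene, and Th, the gene of tyrosine hydroxylase, were called toward AD cells. The log2 ratio was 0.62 for Gadd45b (adjusted p = 0.000222) and 0.60 for Th (adjusted p = 0.000471). Th came under 1.5-fold with array weights (log2 ratio 0.58) and without AD replicate 3 (0.57) or AI replicate 4 (0.55). The other 16 were not called, and without the fold threshold 2 genes of the list passed with higher AD signals and 4 with higher AI signals, against the same 8.50% and 9.62% of all clusters. The list's median log2 ratio was 0.038. The lists name transcripts and give no measure of cAMP itself.

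Among 16 other neuropeptide precursor genes, Npy, the gene of neuropeptide Y, was the called one. Its AD arrays averaged 8.11 ± 0.093 log2 and its AI arrays 7.35 ± 0.16 log2 (log2 ratio 0.75, adjusted p = 0.000451 from limma). Its direction was opposite to that of Vip. Of the 16 genes, 14 were dim on every array, and the median log2 ratio was 0.020.

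**Figure D3:**
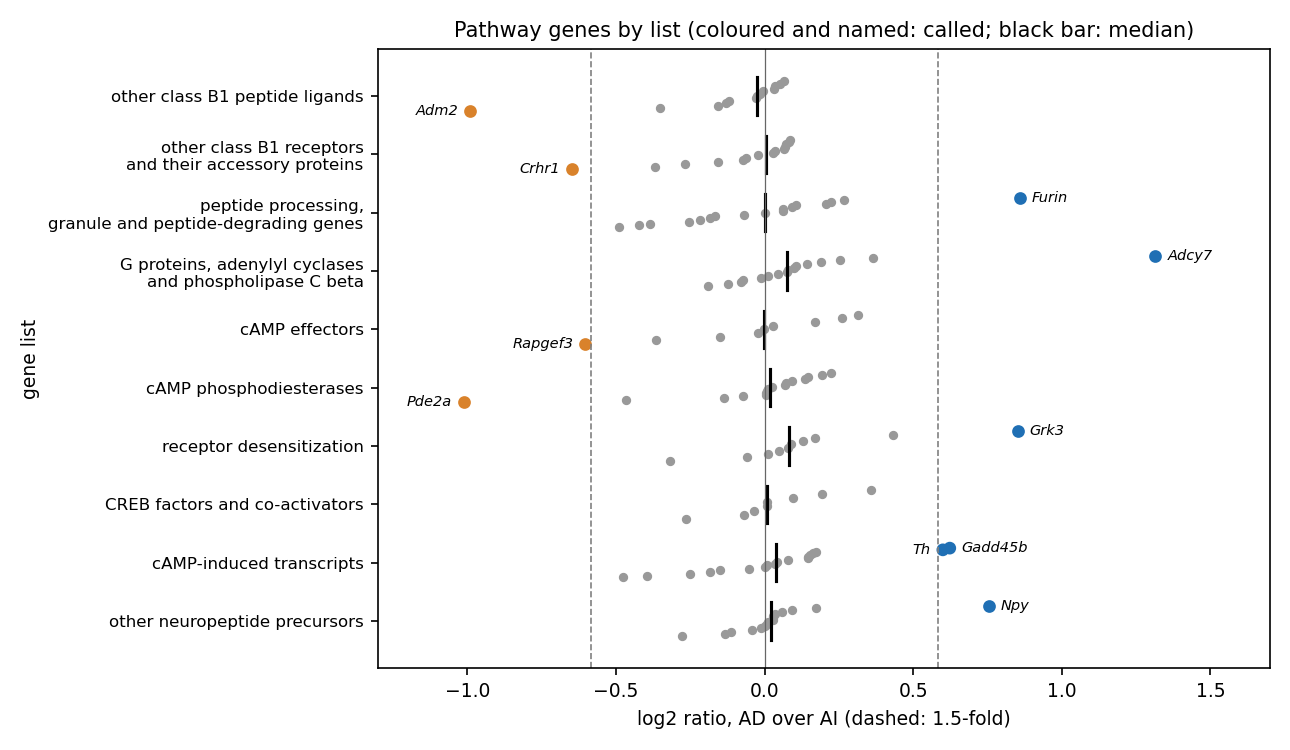
Log2 ratio of AD over AI for the measured genes of the 10 pathway lists, 1 row per list. Grey dots were not called, blue dots were called as higher in AD cells and orange dots as higher in AI cells, the black bar is the median of a list, and dashed lines mark 1.5-fold. The medians lie between -0.024 and 0.084 log2, and the called genes stand apart as single points.

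The labelled cell type was checked with marker genes. Of 11 measured markers of sympathetic neuroblastoma, 10 were above the median on every array and none was dim on all of them. Phox2a, a transcription factor of noradrenergic neurons, Dbh, the enzyme that makes noradrenaline, and Th were called toward AD cells (log2 ratios 1.13, 3.01 and 0.60), and the other 8 were not called. Without the fold threshold, 7 of the 11 passed toward AD cells and 1, Gata2 (log2 ratio -0.23, adjusted p = 0.0376 from limma), toward AI cells, against 8.50% and 9.62% of all clusters. The ratios of Ddc (-0.29), Stmn2 (-0.045) and Hand2 (-0.0044) were also negative but did not pass. The list's median log2 ratio was 0.34, and its mean signal, to which Dbh contributed the largest difference of the 11, was 9.21 to 9.34 log2 in AD arrays and 8.69 to 8.82 log2 in AI arrays. The part of these markers in the differences of Sctr and Vip was not tested. All 6 immune markers were dim on every array, as were 3 of 5 fibroblast markers, 4 of 5 endothelial markers and, of 5 Schwann cell markers, Sox10, S100b and Foxd3. The remaining endothelial marker, Pecam1, was dim on 0 arrays, with means of 6.80 log2 in AD and 6.98 log2 in AI arrays. Of the remaining fibroblast markers, Pdgfra was dim on 1 array and Col1a1 on 7. The other Schwann cell markers were above the median on every array. Erbb3, a neuregulin receptor, averaged 8.44 log2 in AI arrays and 7.92 log2 in AD arrays without overlap (log2 ratio -0.52, adjusted p = 0.00170 from limma), the direction of Vip, and its part was not tested. Pmp22, a myelin protein gene, averaged 12.04 and 11.98 log2 (log2 ratio -0.067, adjusted p = 0.476). At the 1.5-fold threshold no Schwann cell, fibroblast, immune or endothelial marker was called in limma or in the analysis of variance without moderation, and in limma 2, 0, 1 and 2 of them had an unadjusted p under 0.05. The mean signal was 7.16 to 7.36 log2 in AD and 7.28 to 7.32 log2 in AI arrays for the Schwann cell list, 5.36 to 5.49 and 5.33 to 5.40 log2 for the fibroblast list, 4.96 to 5.13 and 5.01 to 5.11 log2 for the immune list, and 5.44 to 5.59 and 5.48 to 5.58 log2 for the endothelial list. These ranges overlapped between the phenotypes for all 4 lists.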

How the data were processed

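RNA of 4 AD and 4 AI Neuro2a samples was hybridized to Affymetrix mouse gene arrays by the authors. The deposited values are log2 signals, which the authors made with background correction and normalization. GCRMA in Partek 6.5 is given by the submitters' processing notes. The methods list 3 normalizations, of which the table holds 1, and the genome build of the clusters is not given in the sources used here. That the scale is log2 was taken from the range of the values and from GCRMA; any centring is not stated. The arrays give no counts, and their number limits the precision.

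The table held 35556 transcript clusters, of which 21789 carried a single symbol. The comparison of AD with AI samples used limma 3.58.1 (R 4.3.3) and no covariate. Exact permutation tests and summaries used Python 3.11.15, pandas 2.3.3 and numpy 2.4.6, and plots matplotlib 3.10.9. In a simulated table of 35556 clusters, 200 of them changed, the model recovered 92% of those changed 2-fold and 76% at 1.75-fold, with 5 false calls. The simulated noise was independent between clusters. Far fewer clusters were changed than the 18.1% with an adjusted p under 0.05 from limma in the real arrays, so these rates need not hold there.

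The members, lists and alternatives were chosen with earlier results of these data known. Named genes are the 7 members, up to 3 called genes per list and direction with the largest change, and the 3 genes most correlated with Sctr and with Vip. Neighbouring genes, genes without a single-symbol cluster and the cell type markers named were added outside this rule, after their values were seen. Alternatives were quantile normalization, median centring, leaving out clusters under the 40th percentile, analysis of variance without moderation, trend and robust moderation, array weights, a replicate block, the mean of a gene's clusters, and leaving out each array in turn. Replicate numbers did not pair the samples. No protein sequences were used here.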

Additional observations from a re-analysis of the deposited data

Results flagged for a closer look

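Adcyap1 in AI replicate 1, at 5.08 log2, lay below the other 3 AI arrays, which read 5.26 to 5.29 log2. The gap was large for the range of the group by Dixon's criterion. It was the 1 case among 34 sets of 4 arrays (17 genes in AD and AI cells), where chance gives about 1 in 20, and all 8 signals of Adcyap1 were dim. Its cause was not tested.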

How the results depend on the processing

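Under the 16 alternatives, Sctr stayed called as higher in AD cells (log2 ratio 1.88 to 1.99) and Vip as higher in AI cells (-1.21 to -1.10), and Sct, Adcyap1r1 and Adcyap1 kept a positive ratio without being called. The ratio of Vipr1 turned to -0.071 with the mean of its clusters and ranged from -0.044 to 0.10 when single arrays were left out. The ratio of Vipr2 turned to 0.033 with median centring and ranged from -0.082 to 0.0074 when single arrays were left out. Adcyap1 and Vipr2 gave no value when dim clusters were left out. Of the pathway genes, 2 rather than 4 were called as higher in AI cells with median centring, where Crhr1 and Rapgef3 fell under 1.5-fold. The cause was not tested.

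Replicate numbers are shared by the groups, but deviations of same-numbered arrays correlated at -0.17 to 0.078, and 1 of 8 arrays correlated best with its own number. With the replicate block, 476 and 876 clusters were called as higher in AD and AI cells, against 495 and 901 without it, and the members called were the same. Dim signals limit what can be said of Vip in AD cells and of Vipr1, Vipr2 and Adcyap1 in both phenotypes.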
